A study of Homo sapiens with 15 samples.

Results

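This account covers 10 genes whose products modify, fold or cross-link collagen: the prolyl 4-hydroxylase alpha subunits P4HA1 and P4HA2, the lysyl hydroxylases PLOD1, PLOD2 and PLOD3, the collagen galactosyltransferases COLGALT1 and COLGALT2, the collagen chaperone SERPINH1, and the lysyl oxidases LOX and LOXL2. They were taken by symbol from the 59608 genes of the deposited table, and all 10 passed the filter on low genes (a mean of 10 normalized counts or more), as did 13561 genes in all. The cells were MDA-MB-231, an established human triple-negative breast cancer line, grown as adherent 2D cultures and exposed for 6 h either to the vehicle DMSO or to ZJ-101 at 0.5, 5, 50 or 500 nM. ZJ-101 is a simplified synthetic analog of the marine macrolide superstolide A. Poly-A RNA was sequenced from 3 dishes per group, 15 libraries in all. The time point was chosen by the study to catch changes in expression before the cells change shape. Everything here comes from 1 cell line at 1 time, and the 4 doses share the same 3 DMSO libraries.

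Collagen chains are modified while they are still unfolded in the endoplasmic reticulum (ER). Prolyl 4-hydroxylase, a complex of alpha subunits with the P4HB subunit, makes the hydroxyproline that keeps the triple helix stable at body temperature, and lysyl hydroxylases make the hydroxylysine to which COLGALT1 and COLGALT2 attach galactose. SERPINH1 (HSP47) binds the folded triple helix and travels with it out of the ER. Outside the cell, LOX and LOXL2 oxidise lysine and hydroxylysine side chains, and the products form the covalent cross-links of the fibre. The hydroxylases need iron, 2-oxoglutarate, oxygen and ascorbate, and P4HA1, PLOD2 and LOX are known targets of the hypoxia-inducible factors, while SERPINH1 is a classical target of the heat shock factor HSF1.

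The start-site regions of the members are shown because these 2 regulatory inputs were looked for in them. RefSeq promoter sequences (GRCh38.p14, 250 bases before to 50 bases after the first start listed for a symbol) were matched for 8 of the 10 genes, all but COLGALT2 and LOXL2. In the 5 sequences below, read 5′ to 3′ on the strand of the gene, capitals mark the hypoxia response element cores ACGTG and GCGTG on either strand (CACGT is ACGTG on the opposite strand) and, in SERPINH1, the heat shock element, 3 units TTC, GAA and TTC with 2 free bases between neighbours. They cover chr5:122078210-122078509 for LOX (minus strand), chr3:146161135-146161434 for PLOD2 (minus), chr10:73096817-73097116 for P4HA1 (minus), chr1:11934467-11934766 for PLOD1 (plus) and chr11:75562003-75562302 for SERPINH1 (plus). LOX, PLOD2 and P4HA1 stand for genes that fell at 500 nM, PLOD1 and SERPINH1 for genes whose change did not pass the test.
LOX: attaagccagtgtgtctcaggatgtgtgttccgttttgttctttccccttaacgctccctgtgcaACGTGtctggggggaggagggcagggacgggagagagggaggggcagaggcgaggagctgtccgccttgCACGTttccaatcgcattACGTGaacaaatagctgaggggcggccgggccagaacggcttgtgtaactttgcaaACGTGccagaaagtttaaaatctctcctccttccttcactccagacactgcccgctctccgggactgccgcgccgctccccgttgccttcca
PLOD2: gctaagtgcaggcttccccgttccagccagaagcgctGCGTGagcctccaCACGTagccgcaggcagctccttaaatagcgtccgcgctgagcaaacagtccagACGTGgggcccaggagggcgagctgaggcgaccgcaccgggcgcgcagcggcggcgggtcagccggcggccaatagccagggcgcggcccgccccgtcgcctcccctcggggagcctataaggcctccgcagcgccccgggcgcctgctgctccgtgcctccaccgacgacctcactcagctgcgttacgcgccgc
P4HA1: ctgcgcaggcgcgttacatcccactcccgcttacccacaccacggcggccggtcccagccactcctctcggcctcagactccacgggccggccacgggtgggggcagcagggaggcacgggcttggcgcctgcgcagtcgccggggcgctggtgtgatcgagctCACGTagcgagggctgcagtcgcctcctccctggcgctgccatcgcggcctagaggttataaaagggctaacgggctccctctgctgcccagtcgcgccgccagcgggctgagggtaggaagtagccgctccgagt
PLOD1: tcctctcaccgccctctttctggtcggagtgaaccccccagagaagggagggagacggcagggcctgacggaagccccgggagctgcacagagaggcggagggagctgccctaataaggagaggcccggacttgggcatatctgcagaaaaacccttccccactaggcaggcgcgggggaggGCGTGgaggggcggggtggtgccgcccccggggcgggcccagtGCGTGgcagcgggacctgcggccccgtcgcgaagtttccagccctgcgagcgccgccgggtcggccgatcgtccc
SERPINH1: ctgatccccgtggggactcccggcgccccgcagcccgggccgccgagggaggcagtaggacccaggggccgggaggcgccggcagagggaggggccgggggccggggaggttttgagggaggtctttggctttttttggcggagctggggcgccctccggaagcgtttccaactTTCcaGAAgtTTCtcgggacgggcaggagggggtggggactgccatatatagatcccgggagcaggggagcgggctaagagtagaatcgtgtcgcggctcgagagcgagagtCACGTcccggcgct
These starts lie inside the outermost ends of the GENCODE gene models given further on.

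LOX held 4 copies of ACGTG, beginning at positions -185, -116, -98 and -42 from the start site. PLOD2 held ACGTG at -200 and -146 and GCGTG at -213, and P4HA1 held 1 ACGTG at -86. PLOD1 held GCGTG at -68 and -25 and no ACGTG. SERPINH1 held the heat shock element at -76 and an ACGTG at 37, after the start. COLGALT1, whose sequence is not shown, held GCGTG at -178 and -53, and P4HA2 and PLOD3 held neither core. No 2 of these matches overlapped. Such short cores are frequent. ACGTG occurred in 4 of the 8 matched members and in 21.6% of 27305 promoters of the same length, GCGTG in 3 members and 36.3% of promoters, and the heat shock element in 1 member and 0.487%. The ER stress element (CCAAT and CCACG with 9 free bases between them) occurred in 0 members and in 0.0806% of promoters. A match describes the letters in the window and says nothing on its own about binding.

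Libraries held 12415519 to 15284762 gene-assigned reads (median 13320354), and no pair of replicates was close enough to be 1 library deposited again. Marker genes of the line were as follows. VIM, CD44 and EGFR had medians of 14370, 11260 and 5174 normalized counts, ESR1 was at 0, PGR was at 15.01, and the leukocyte marker PTPRC was at 1.78. The median over libraries was 1223 for ERBB2, 288 for EPCAM, 135 for CDH1 and 240.0 for PECAM1, so these 4 were low to moderate rather than absent. The 0.5 nM replicate 2 library had the lowest correlation with the others (median r = 0.989, against up to 0.992). Among the 3 libraries of 50 nM, replicate 2 held the highest value for 10 of 10 members, against 35.8% of all tested genes, and 0.5 nM replicate 2 held the lowest of its group for 7, against 39.5%. The highest values lay in 5 nM replicate 3 for 8 members (36.5% of all tested genes) and in 0.5 nM replicate 3 for 7 (33.7%). These values stand beside the results at those doses.

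In DMSO all 10 genes were expressed well above the filter. Expressed per kilobase of the canonical transcript, a scale that depends on the length chosen, the order of the DMSO levels was SERPINH1 (2399 ± 58.5 normalized counts per kb, SD, n = 3), PLOD2 (1595 ± 17.8), LOXL2 (1548 ± 12.7), PLOD1 (1274 ± 56.3), COLGALT1 (1045 ± 25.1), P4HA1 (864 ± 3.51), PLOD3 (627 ± 12.1), LOX (312 ± 5.34), P4HA2 (267 ± 7.03) and COLGALT2 (141 ± 3.54). No neighbours in this order overlapped across their 3 DMSO libraries, which covers the spread of replicates and not the choice of length. SERPINH1 has 2058 canonical bases but 6281 exon bases over all transcripts, LOXL2 3721 and 5985, and PLOD2 3749 and 14518. The order is given for the canonical length only. On the per-kb scale, in DMSO, P4HA1 made up 76.4% of the 2 alpha subunits, COLGALT1 88.1% of the galactosyltransferases and LOXL2 83.2% of the LOX and LOXL2 sum, while PLOD2 (45.6%) and PLOD1 (36.4%) shared the lysyl hydroxylase signal with PLOD3 (17.9%).

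At 500 nM, the comparison with the strongest response, 7 of the 10 members fell and 0 rose (limma on log2(normalized count + 1), Benjamini-Hochberg adjustment over all tested genes, threshold 0.05). Over all 13561 tested genes 10.1% fell and 7.69% rose. The members' median log2 fold change was -0.26, beside 0.003 over all tested genes. With edgeR and with DESeq2 on the recovered reads 0 members rose as well, and 7 fell with each. The 7 that fell were LOX, PLOD2, COLGALT2, P4HA1, COLGALT1, PLOD3 and LOXL2, and every one of them was below DMSO in each 500 nM library. P4HA2, PLOD1 and SERPINH1 did not pass. In bulk RNA, fewer cells expressing a gene and less of its RNA per cell cannot be told apart.

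**Figure D1:**
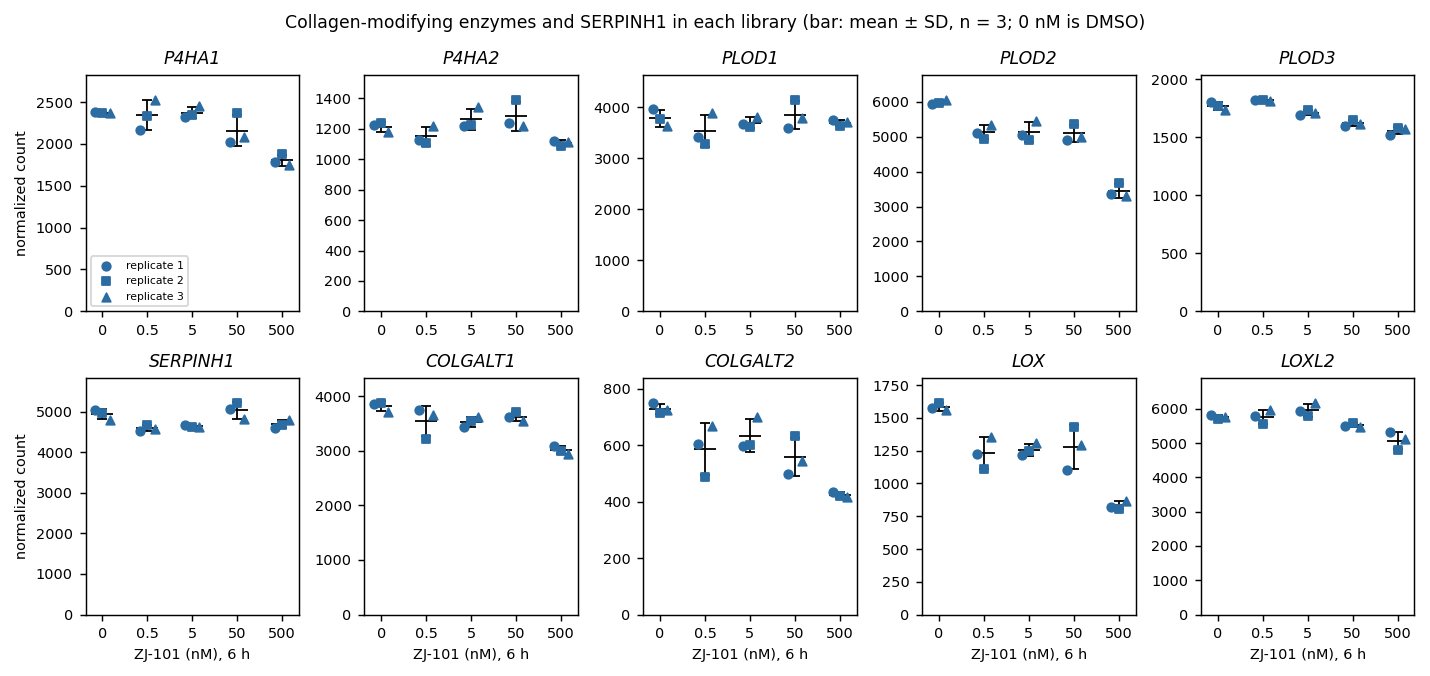
Normalized count (vertical axis, 1 panel per gene) of each library against the group (horizontal axis: DMSO and ZJ-101 at 0.5, 5, 50 and 500 nM); points are the 3 libraries of a group and the bars their mean ± SD. LOX and PLOD2 show a small drop at the lowest dose and a larger one at 500 nM (means of 52.6% and 57.6% of DMSO), whereas PLOD1 and SERPINH1 overlap DMSO at 500 nM.

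LOX (chromosome 5, 122063195 to 122078413, minus strand, hg38), the lysyl oxidase with 4 ACGTG cores in its promoter, had the largest estimate among the members, with a 95% interval (-1.09 to -0.76) that overlapped those of PLOD2 and COLGALT2. Its DMSO libraries held 1578, 1614 and 1560.4 normalized counts. At 500 nM they held 823, 808 and 866. Every 500 nM library was thus far below the lowest DMSO library. The mean was 1584 ± 27.1 in DMSO and 833 ± 30.2 at 500 nM (SD, n = 3 each), 52.6% of DMSO, and the log2 fold change was -0.93 with a standard error of 0.08 (limma, adjusted p = 7.6e-08). The libraries at 0.5 nM held 1223, 1113 and 1359 normalized counts, those at 5 nM 1215, 1249.6 and 1308, and those at 50 nM 1102, 1434 and 1296. All 9 of these libraries lay between the DMSO and the 500 nM values without touching either. LOX shares 2.47% of its exon bases with SRFBP1, a gene on the opposite strand, and whether the counting used strand is not given in the sources used here.

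LOXL2 (chromosome 8, 23296897 to 23425328, minus strand), the other lysyl oxidase, is the more abundant of the pair and fell less. Its DMSO libraries held 5808, 5714 and 5759 normalized counts, and its 500 nM libraries 5309, 4798 and 5119. All 3 treated libraries were lower than the DMSO libraries. The log2 fold change was -0.18 (standard error 0.04, adjusted p = 0.0049, limma), a mean of 88.1% of DMSO. At 0.5 and 5 nM its levels of 5560.5 to 6166 overlapped DMSO, and at 50 nM they ran from 5477 to 5577, below DMSO, without passing the test (-0.06, adjusted p = 0.52, limma). LOXL2 shares 4.98% of its exon bases with its antisense gene LOXL2-AS1 and with ENTPD4.

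PLOD2 (chromosome 3, 146035139 to 146163725, minus strand), the lysyl hydroxylase that acts on the telopeptides and so sets the type of cross-link, had the smallest p of the members. It ranked 46 by p among all genes that fell at 500 nM. Its libraries held 5927, 5955 and 6054 normalized counts in DMSO and 3346, 3681 and 3308 at 500 nM. The groups were widely apart, at 5979 ± 66.6 and 3445 ± 206 (SD, n = 3 each), and PLOD2 fell by 0.80 on the log2 scale with a standard error of 0.05 (limma, adjusted p = 2.0e-09). At 0.5 nM the libraries held 5116, 4932 and 5334, at 5 nM 5059.5, 4905 and 5450.4, and at 50 nM 4914, 5376 and 4998 normalized counts. Each of these 9 libraries was below every DMSO library and above every 500 nM library.

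The other lysyl hydroxylases moved less than PLOD2 at 500 nM. PLOD1 (chromosome 1, 11934205 to 11975538, plus strand) acts mainly on the helical part of the chain. Its libraries held 3965, 3775 and 3631 normalized counts in DMSO and 3757, 3643 and 3709 at 500 nM, so the groups overlapped. The log2 fold change was -0.03 with a 95% interval from -0.16 to 0.09 (adjusted p = 0.78, limma), which leaves out a fall of the size seen for PLOD2. PLOD3 (chromosome 7, 101205977 to 101218420, minus strand) encodes an enzyme that has glycosyltransferase activity beside its hydroxylase activity. It held 1802, 1769 and 1734 normalized counts in DMSO and 1522, 1579.8 and 1569 at 500 nM, lower in all 3 libraries (1.8% of its exon bases are shared with ZNHIT1 on the opposite strand), and fell by 0.18 on the log2 scale with a standard error of 0.04 (limma, adjusted p = 0.0019). Unlike LOX and PLOD2, PLOD3 had no drop at the lowest dose: its 0.5 nM libraries, at 1817 to 1823, were all above DMSO (not past the test, adjusted p = 0.67, limma). Its group means then ran 1713 ± 20.5 at 5 nM, 1622 ± 26.9 at 50 nM and 1557 ± 30.8 at 500 nM (SD, n = 3 each). The 50 nM value did not pass (-0.12, adjusted p = 0.062, limma) except without 0.5 nM replicate 2 (adjusted p = 0.031) or with a filter at a mean of 50 (adjusted p = 0.047).

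Of the prolyl 4-hydroxylase alpha subunits, the major one fell and the minor one did not pass. P4HA1 (chromosome 10, 73007217 to 73096974, minus strand) held 2382, 2365 and 2366 normalized counts in DMSO and 1783, 1878 and 1747 at 500 nM. Its mean went from 2371 ± 9.64 to 1803 ± 67.8 (SD, n = 3 each), so that P4HA1 fell by 0.40 on the log2 scale with a standard error of 0.06 (limma, adjusted p = 8.6e-05). At 0.5 and 5 nM it stood at 98.7% and 100.2% of DMSO, and at 50 nM its libraries were split, with 2024 and 2084 in replicates 1 and 3 and 2371 in replicate 2. P4HA1 did not pass at 50 nM (-0.14, adjusted p = 0.22, limma) but passed without 50 nM replicate 2 (adjusted p = 0.035). P4HA2 (chromosome 5, 132190147 to 132295315, minus strand) held 1225, 1237 and 1177 normalized counts in DMSO and 1121, 1088 and 1115 at 500 nM. Although the 500 nM libraries were all lower, the log2 fold change of -0.13 (95% interval -0.25 to -0.01) did not pass after adjustment (adjusted p = 0.13, limma), and it passed only when the 2 groups were fitted alone (adjusted p = 0.030). P4HA2 shares 5.41% of its exon bases with the antisense gene P4HA2-AS1. P4HB, the partner subunit of both, which is also protein disulfide isomerase, fell from a mean of 9972 to 8059 normalized counts (-0.31, adjusted p = 1.0e-04, limma).

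Both collagen galactosyltransferases fell at 500 nM. COLGALT2 (chromosome 1, 183929854 to 184037729, minus strand), the minor gene, held 749.6, 714 and 723 normalized counts in DMSO and 434, 419.7 and 416 at 500 nM. The mean was 58.1% of DMSO, and the gene fell by 0.78 on the log2 scale with a standard error of 0.10 (limma, adjusted p = 1.2e-05). Its intermediate doses were scattered, from 488 to 669 at 0.5 nM, 596 to 702 at 5 nM and 499.6 to 632 at 50 nM, and all 9 libraries were below DMSO and above 500 nM. COLGALT1 (chromosome 19, 17555649 to 17583162, plus strand), the main gene of the pair, held 3859, 3872 and 3707 normalized counts in DMSO and 3094, 3001 and 2937 at 500 nM. This was a fall to 79.0% of DMSO (log2 fold change -0.34, standard error 0.05, adjusted p = 6.2e-05, limma). From 0.5 to 50 nM its means stayed between 92.5% and 95.1% of DMSO, with no call at any of these doses (adjusted p of 0.32, 0.34 and 0.51, limma).

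SERPINH1 (chromosome 11, 75562056 to 75572783, plus strand), the member with the highest DMSO level per kb of the canonical transcript, did not pass the test at any dose. Its libraries held 5031, 4977 and 4801 normalized counts in DMSO and 4609, 4676 and 4807 at 500 nM, with 1 treated library above the lowest DMSO library. The log2 fold change was -0.07 (95% interval -0.15 to 0.01, adjusted p = 0.24, limma). At 0.5 nM (4527, 4669 and 4565) and 5 nM (4663, 4634 and 4624) every library was below DMSO, whereas at 50 nM (5073, 5213 and 4813) the groups overlapped (adjusted p of 0.21, 0.33 and 0.80, limma).

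**Figure D2:**
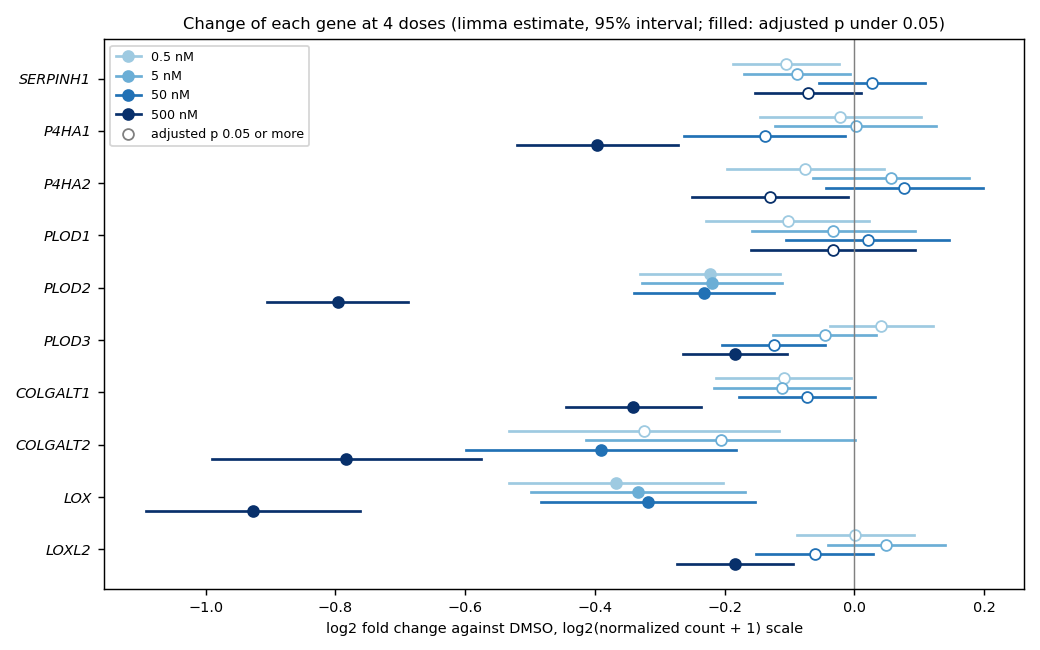
Log2 fold change against DMSO (horizontal axis, log2(normalized count + 1) scale) for each gene (vertical axis) at 4 doses, with 95% intervals from limma; filled points passed the test at an adjusted p under 0.05. At 500 nM 7 genes were below 0 and passed, from -0.18 (LOXL2 and PLOD3) to -0.93 (LOX), and at 0.5, 5 and 50 nM filled points were limited to LOX, PLOD2 and, at 50 nM, COLGALT2.

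At the lower doses only LOX and PLOD2 passed, joined by COLGALT2 at 50 nM. At 0.5 nM 2 members fell and 0 rose, where 0.922% of all tested genes fell and 0.251% rose. LOX was at -0.37 on the log2 scale (limma, adjusted p = 0.027) and PLOD2 at -0.22 (limma, adjusted p = 0.043). At 5 nM the same 2 genes passed, LOX at -0.33 and PLOD2 at -0.22 (adjusted p = 0.030 each, limma), where 1.71% of all genes fell and 0.465% rose. At 50 nM 3 members fell and 0 rose, where 3.71% of all genes fell and 2.29% rose: LOX at -0.32 (adjusted p = 0.017), PLOD2 at -0.23 (adjusted p = 0.0083) and COLGALT2 at -0.39 (adjusted p = 0.021, all limma). COLGALT2 was of like size at 0.5 nM without passing (-0.32, adjusted p = 0.13, limma), and passed there without 0.5 nM replicate 3 (adjusted p = 0.030). Counting non-overlap with DMSO alone, all libraries were lower for 4 members at 0.5 nM, 6 at 5 nM, 6 at 50 nM and 8 at 500 nM, beside 10.7%, 12.7%, 13.2% and 19.6% of all tested genes. All libraries were higher for 1 member (PLOD3) at 0.5 nM, beside 7.43%, and for 0 at 5, 50 and 500 nM, beside 10.5%, 11.6% and 18.9%.

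The calls at 0.5 and 5 nM rested on few libraries. At 0.5 nM, LOX no longer passed without any 1 of the 3 DMSO libraries or without 0.5 nM replicate 1 or 2 (adjusted p of 0.12 at most), nor with only the DMSO and 0.5 nM libraries in the fit (adjusted p = 0.11). PLOD2 no longer passed at 0.5 nM without any of these same 5 libraries, 5 nM replicate 1 or 2, 50 nM replicate 3 or 500 nM replicate 1 or 3 (adjusted p of 0.17 at most), nor with the 2 groups alone (adjusted p = 0.15). At 5 nM both were lost without any 1 DMSO library or without 5 nM replicate 1 or 2, and LOX also without 5 nM replicate 3 (adjusted p of 0.17 at most for PLOD2 and 0.13 for LOX). At 50 nM PLOD2 was lost only without 50 nM replicate 1 (adjusted p = 0.055), LOX without DMSO replicate 1 or 2 or 50 nM replicate 1 (0.12 at most), and COLGALT2 without any 1 DMSO library or 50 nM replicate 1 or 3 (0.13 at most, all limma). The 7 calls at 500 nM held in each of 15 fits that left out 1 library. Their largest adjusted p was 0.041, for LOXL2.

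Steps between neighbouring doses were taken from the same fit. From 0.5 to 5 nM 0 members passed (limma, with 2 at an unadjusted p under 0.05, and 0 with edgeR and DESeq2), where 0.118% of all genes did. From 5 to 50 nM 0 passed as well (limma, with 3 at an unadjusted p under 0.05, and 0 with edgeR and DESeq2), although 5.01% of all genes did. For PLOD2 these steps were 0.002 and -0.01 with 95% intervals of -0.11 to 0.11 and -0.12 to 0.10, and for LOX 0.03 and 0.01 with intervals of -0.13 to 0.20 and -0.15 to 0.18. From 50 to 500 nM 5 members fell, where 1.8% of all genes fell. PLOD2 fell by 0.57 (adjusted p = 3.0e-06), LOX by 0.61 (adjusted p = 1.9e-04), COLGALT1 by 0.27 (adjusted p = 0.0054), P4HA1 by 0.26 (adjusted p = 0.024) and COLGALT2 by 0.39 on the log2 scale (adjusted p = 0.043, all limma). In this last step P4HA1 was lost without 50 nM replicate 2 or 500 nM replicate 1 or 3 (adjusted p of 0.16 at most). COLGALT2 passed in just 4 of the 15 fits that left out 1 library, with an adjusted p of 0.26 without 50 nM replicate 2. It was also lost with no filter on low genes (adjusted p = 0.057, limma). With edgeR 5 members passed in this step and with DESeq2 6, P4HA2 being the additional one (adjusted p = 0.048, DESeq2). With limma P4HA2 (adjusted p = 0.071) passed without 0.5 nM replicate 2 or 3 (adjusted p of 0.027 and 0.048). From 5 to 50 nM, SERPINH1 rose without 0.5 nM replicate 2 (adjusted p = 0.047) and P4HA1 fell without 50 nM replicate 2 (adjusted p = 0.041, both limma).

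Fitted as a slope over the 5 dose ranks, DMSO included, the same 7 genes that fell at 500 nM declined, where 9.33% of all genes did. The slope was -0.18 log2 units per dose rank for LOX (adjusted p = 2.1e-04), -0.16 for PLOD2 (adjusted p = 1.0e-04), -0.16 for COLGALT2 (adjusted p = 2.7e-04), -0.09 for P4HA1 (adjusted p = 0.0011), -0.06 for COLGALT1 (adjusted p = 0.0051), -0.05 for PLOD3 (adjusted p = 5.6e-04) and -0.04 for LOXL2 (adjusted p = 0.022, all limma). P4HA2, PLOD1 and SERPINH1 had slopes of -0.011, 0.0057 and -0.0010 that did not pass (adjusted p of 0.73, 0.84 and 0.97, limma). The slope of LOXL2 was lost without 500 nM replicate 2 (adjusted p = 0.11) or 3 (adjusted p = 0.073). It was also lost with no filter on low genes (adjusted p = 0.056, limma). That of COLGALT1 was lost when the DMSO libraries were left out (adjusted p = 0.062).

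Since members of a family differed, their ratio was tested within each library, where scaling cancels. The slope of the log2 ratio on the dose rank was tested by permuting the 15 libraries (100000 permutations, two-sided) for 6 pairs, and each passed after adjustment over the 6. The largest slope was that of PLOD1 over PLOD2, at 0.17 per dose rank (adjusted p = 6e-05, permutation test, with a raw p of 1e-05 that is the smallest these permutations can give). The ratio, calculated on normalized counts, went from -0.66 ± 0.08 in DMSO to 0.11 ± 0.10 at 500 nM on the log2 scale (SD, n = 3 each). PLOD1 thus had fewer normalized counts than PLOD2 in DMSO and slightly more at 500 nM. LOX declined relative to LOXL2, with a slope of -0.14 (adjusted p = 0.0014, permutation test) and a log2 ratio of -1.86 ± 0.03 in DMSO and -2.61 ± 0.07 at 500 nM.

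PLOD2 also declined relative to PLOD3 (slope -0.11, adjusted p = 0.0039, permutation test), P4HA1 relative to P4HA2 (slope -0.08, adjusted p = 3e-04) and COLGALT2 relative to COLGALT1 (slope of COLGALT1 over COLGALT2 0.10, adjusted p = 0.0014), and PLOD1 rose relative to PLOD3 (slope 0.06, adjusted p = 0.0061). In all 6 pairs the 500 nM and DMSO ratios did not overlap, for which the exact permutation test gives p = 0.1, the smallest possible with 3 libraries against 3. PLOD1 over PLOD2 was the 1 pair whose group means moved the same way at every step, and the means of the other 5 pairs moved both ways. The log2 ratio of PLOD2 over PLOD3, for example, averaged 1.76 in DMSO, 1.49 at 0.5 nM, 1.65 at 50 nM and 1.14 at 500 nM. The 3 lysyl hydroxylase pairs share genes and are not independent. The slopes kept their sign and passed with pseudocounts of 0.5 and 5 and without each library in turn.

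**Figure D3:**
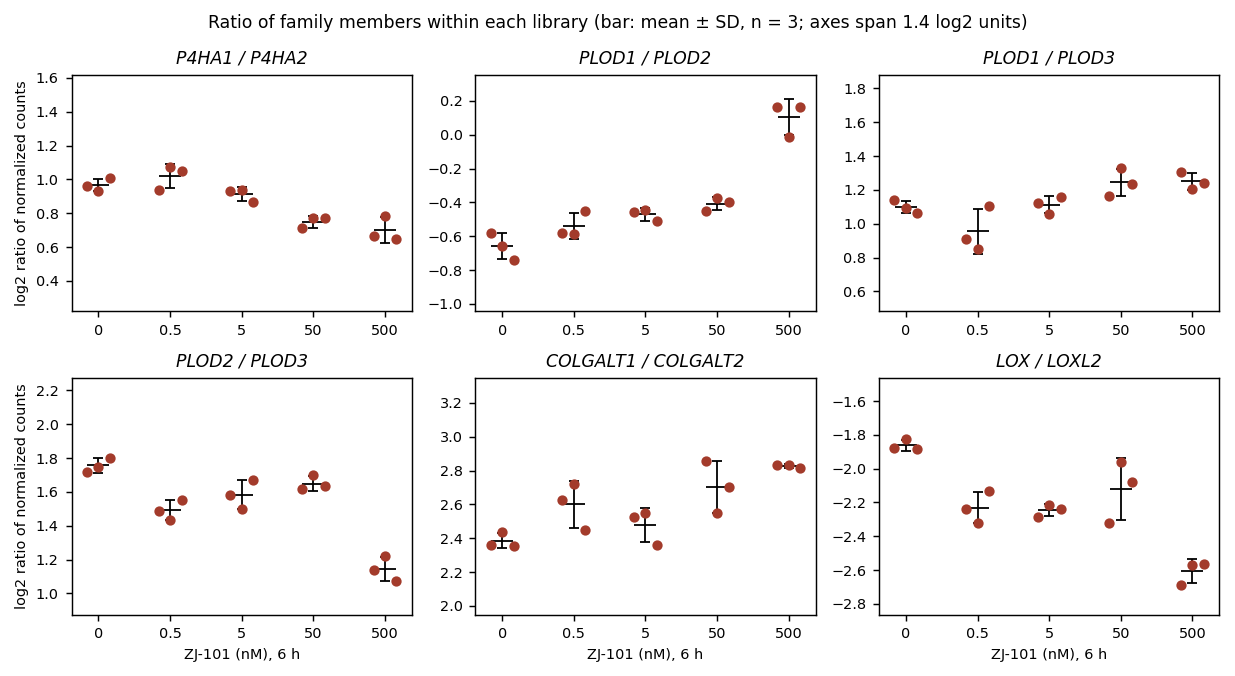
Log2 ratio of normalized counts of 2 genes of a family (vertical axis) in each library by group (horizontal axis: DMSO and 4 doses of ZJ-101), 1 panel per pair; points are libraries, bars are mean ± SD, and all panels span the same number of log2 units. PLOD1 over PLOD2 climbs from a mean of -0.66 in DMSO to 0.11 at 500 nM and LOX over LOXL2 drops from -1.86 to -2.61, in each case without overlap between these 2 groups.

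Per kb, the make-up of the lysyl hydroxylases shifted with these ratios. PLOD2 made up 45.6 ± 1.15% of the lysyl hydroxylase sum in DMSO, 42.7% at 0.5 nM, 42.5% at 5 nM, 42.1% at 50 nM and 33.8 ± 1.45% at 500 nM (SD, n = 3). Per kb of the canonical transcript, PLOD1 had the largest share at 500 nM, with 45.8 ± 1.39% against 36.4 ± 1.07% in DMSO. Which gene leads in a group depends on the length used. PLOD1 has 2976 canonical bases and 5320 exon bases over all transcripts, and PLOD2 3749 and 14518. Shares with exon bases were not computed. The family sum fell to 77.7% of its DMSO value. The sums of the other families at 500 nM were 79.6% of DMSO for the prolyl 4-hydroxylase alpha subunits, 76.5% for the galactosyltransferases and 82.2% for LOX with LOXL2. Although LOX fell most among the 10 members, the sum of LOX and LOXL2 fell least of these sums because LOXL2 made up most of it. This sum leaves out LOXL1, LOXL3 and LOXL4, lysyl oxidases outside the 10 members. Their log2 fold changes at 500 nM were -0.96, -0.11 and -0.26. Summed over all 10 members, the per-kb level was 10070 in DMSO and 8333 ± 18.4 at 500 nM, 82.7% of DMSO, and the share of SERPINH1 in this sum went from 23.8% to 27.4%.

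Across the 15 libraries the members that fell most also varied together. Pearson's r of log2(normalized count + 1) was 0.96 for LOX with PLOD2, 0.95 for LOX with COLGALT2, 0.92 for LOX with COLGALT1 and 0.90 for P4HA1 with PLOD2. SERPINH1 and PLOD1 stood apart from them, with r of 0.29 and 0.17 with PLOD2 and 0.37 and 0.33 with LOX. These values describe 15 libraries that fall into 5 groups, and they mix differences between groups with those between replicates. The 2 tested genes most like LOX on this measure were LINC00261 and SMIM14 (r = 0.97 each), those most like PLOD2 were AGRN and FKBP9 (0.98 each), and those most like COLGALT1 were HYOU1 (0.965) and ECE1 (0.95). For COLGALT2 they were TGFBI and ADGRF5 (0.97 each), for P4HA1 LTBP1 and YPEL3 (0.96 each), for PLOD3 MAN1B1 and MGAT1 (0.97 each), and for LOXL2 FAM219A (0.95). AGRN encodes a heparan sulfate proteoglycan of basement membranes, TGFBI an extracellular matrix protein, and LTBP1 a matrix protein that holds latent TGF-beta.

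Other genes of collagen maturation moved in both directions at 500 nM. Of 34 listed genes outside the 10 members 28 were tested, of which 13 fell and 6 rose (limma, median log2 fold change -0.18, beside 0.003 over all genes). The largest falls were those of SEC24D, a COPII coat subunit needed for the export of procollagen (-1.23), ADAMTS3, a procollagen N-proteinase (-1.10), and LOXL1, another lysyl oxidase (-0.96). BMP1, the procollagen C-proteinase that also activates LOX, fell as well (-0.59), as did PPIB, the peptidyl-prolyl isomerase of the collagen prolyl 3-hydroxylation complex (-0.44), P3H1 of the same complex (-0.21) and P3H4, which works with the lysyl hydroxylase of the helix (-0.57). CRTAP, also of the prolyl 3-hydroxylation complex, did not pass (-0.13, adjusted p = 0.072, limma). Of LOXL4, at -0.26, the adjusted p of 0.031 rose above 0.05 without any 1 DMSO library or 500 nM replicate 1 or 2 (0.15 at most), and LOXL3 did not pass (-0.11, adjusted p = 0.85, limma). The largest rises were those of SLC23A2, an ascorbate transporter (0.36), MIA2 (0.32) and KLHL12 (0.26), of which MIA2 and KLHL12 act in the export of procollagen from the ER. SLC23A2 was lost without DMSO replicate 3 (adjusted p = 0.070) and KLHL12 without DMSO replicate 2 (adjusted p = 0.0503, limma). Of 15 fits without 1 library, TMEM38B (0.20) kept its rise in 11 and MIA3 (0.20) in 4. The list held 14 to 21 calls in these fits, with 11 falls and 3 rises without DMSO replicate 2. Without 500 nM replicate 1 it held 9 falls and 5 rises. BMP1, PPIB, P3H4, SEC24D, ADAMTS3 and LOXL1 kept their call in all 15 such fits.

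The courses over dose of some of these genes are set beside that of LOX, with no test of their difference. SEC24D had log2 fold changes of -0.10, -0.01, -0.76 and -1.23 at 0.5, 5, 50 and 500 nM, and LOXL1 of -0.17, -0.16, -0.58 and -0.96. LOX, by comparison, had -0.37, -0.33, -0.32 and -0.93 at these doses, measured against the same DMSO libraries. CREB3L1, from the same list as SEC24D and LOXL1, had -0.39, -0.29, -0.21 and -0.50. It passed at each of these doses (adjusted p of 0.040 at most, limma). At 500 nM its call held in all 15 fits without 1 library, and such fits were not read for it at the lower doses. At 50 nM 7 of the 28 tested genes of the list fell and 4 rose, beside 3.71% and 2.29% of all tested genes. At 5 nM 2 fell (P3H4 and CREB3L1) and 0 rose, beside 1.71% and 0.465%. At 0.5 nM 1 fell (CREB3L1, a transcription factor of collagen genes, at -0.39, adjusted p = 0.0034, limma) and 0 rose, beside 0.922% and 0.251%. The 4 that rose at 50 nM were MIA2, MIA3, KLHL12 and SLC39A13.

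The collagen chains that these enzymes modify also fell in part. Of 26 listed chains 20 were tested, of which 10 fell and 1 rose at 500 nM (median -0.12). COL5A1 (-1.06), COL13A1 (-0.94) and COL6A3 (-0.88) had the largest falls. The major fibrillar chain COL1A1 was low, at a mean of 207 normalized counts in DMSO and 201 at 500 nM (-0.04, adjusted p = 0.83, limma), and COL1A2 and COL3A1 were under the filter, with DMSO means of 3.68 and 0.979 normalized counts. The 8 listed chains with the highest DMSO means, from 1962 to 4937 normalized counts, were COL4A1, COL4A2, COL5A1, COL6A1, COL7A1, COL12A1, COL13A1 and COL18A1. COL27A1 (0.28, adjusted p = 0.047, limma) was the chain that rose at 500 nM, and passed in 6 of 15 fits without 1 library, with an adjusted p of up to 0.20 (without DMSO replicate 2). At 0.5 nM, where LOX and PLOD2 passed, 4 chains fell and 0 rose, beside 0.922% and 0.251% of all tested genes. They were COL4A1 (-0.31), COL4A2 (-0.26), COL5A1 (-0.31) and COL18A1 (-0.26, adjusted p of 0.014 to 0.040 over the 4, limma). Of these, COL4A1 and COL18A1 passed at 5 nM (adjusted p of 0.032 and 0.044, limma). At 50 nM COL5A1 passed (-0.59, adjusted p = 1.1e-05, limma). COL4A1 (-0.14), COL4A2 (-0.03) and COL18A1 (-0.09) did not pass there (adjusted p of 0.26, 0.85 and 0.41, limma). Fits without 1 library were not read for the chains at 0.5 nM.

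Lists for the known regulators of the members were read beside them. Of 25 hypoxia response genes, 14 fell and 1 rose at 500 nM (median -0.21), among them ERO1A (-0.70), an ER oxidase, PFKFB4 (-0.62), a glycolytic regulator, and CA9 (-1.04), which averaged 22.6 normalized counts in DMSO and lost its call without DMSO replicate 2 or 500 nM replicate 2 or 3 (adjusted p of 0.066 at most). SLC2A1, the glucose transporter GLUT1, rose (0.23). At 0.5 and 5 nM 0 of the 25 passed, where 0.922% and 1.71% of all tested genes fell. At 50 nM 8 of the 25 fell and 0 rose, beside 3.71% and 2.29% of all tested genes. Whether hypoxia signalling had a part in the fall of P4HA1, PLOD2 and LOX was not tested.

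The cytosolic heat shock list also holds HSPD1 and HSPE1, whose products are mitochondrial chaperonins. All 16 genes of this list rose at 500 nM (median 0.67), with HSPH1 at 1.45, HSPA8 at 1.24 and DNAJB1 at 1.21. All 16 also rose at 50 nM. SERPINH1, whose promoter holds the heat shock element shown above, had log2 fold changes of 0.03 at 50 nM and -0.07 at 500 nM, neither past the test. The ER lumen chaperone list also holds CANX and HERPUD1, which are proteins of the ER membrane. Of its 14 genes, 13 fell and 0 rose at 500 nM (median -0.45), with HSPA5 at -1.38, DNAJC3 at -1.10 and MANF at -0.86. CANX, at -0.09, did not pass. At 5 nM 6 of the 14 fell and at 50 nM 10. HYOU1, 1 of the 2 genes most like COLGALT1 over the libraries, is on this list.

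**Figure D4:**
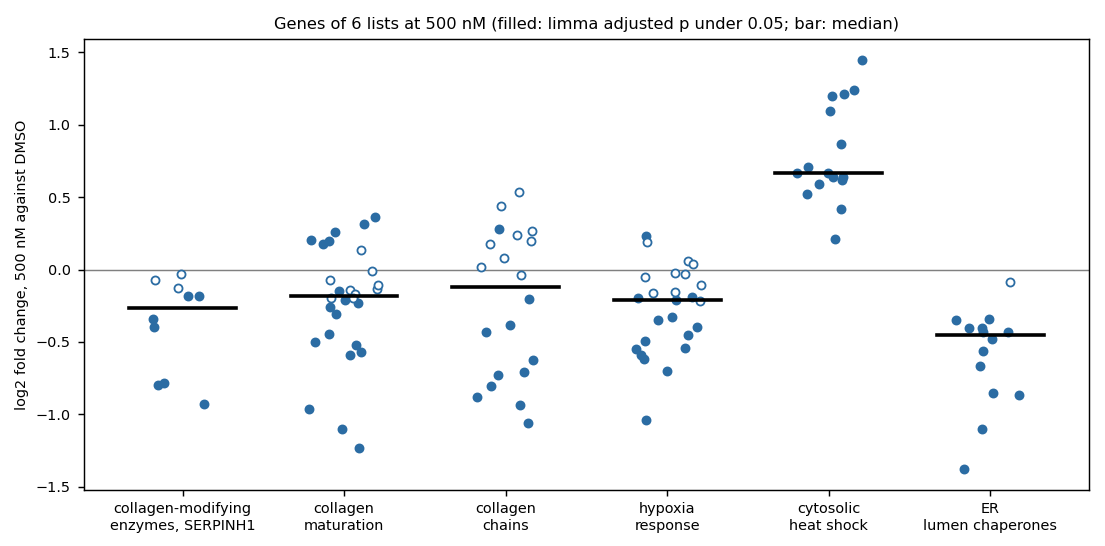
Log2 fold change at 500 nM against DMSO (vertical axis, log2(normalized count + 1) scale) of every tested gene of 6 lists (horizontal axis), 1 point per gene, filled where the adjusted p was under 0.05 (limma), with the list's median as a bar. The 10 collagen-modifying genes spread from -0.93 to -0.03 with a median of -0.26. The median was -0.45 for the ER lumen chaperone list, which includes the membrane proteins CANX and HERPUD1, and -0.12 for the collagen chains. All genes of the cytosolic heat shock list, which includes the mitochondrial HSPD1 and HSPE1, lie above 0 (median 0.67).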

How the data were processed

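Poly-A RNA of MDA-MB-231 dishes was sequenced as paired-end reads. The authors used HISAT2 (hg38) for alignment, htseq-count with a GENCODE annotation for counting (release not given in the sources used here) and DESeq2 size factors to scale the counts. The deposited values are this signal, normalized counts, and whole reads were recovered from it for 100.0% of values (within 0.001). Labels name 3 biological replicates per group, and a chi-square test of each replicate pair found more than sampling noise. Groups followed the labels. limma 3.58.1 in R 4.3.3 was fitted on log2(normalized count + 1) over all 15 libraries (13561 genes with a mean of at least 10, trend of variance on mean, 10 residual degrees of freedom), with Benjamini-Hochberg adjustment at 0.05. The table also held 1 line without a gene name, which was left out. Fold changes on this scale understate those of low genes.

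Alternatives were pseudocounts of 0.5 and 5, no filter or a mean of 50, TMM or equal totals, edgeR 4.0.16 and DESeq2 1.42.0 on the recovered reads, the replicate block, only the libraries compared, and each library left out. Replicate numbers did not pair libraries (30 correlations of deviations, -0.085 to 0.096). On simulated data for 500 nM against DMSO, 200 of 13561 genes were changed. Of these changes, 24 of 66 of 0.3, 46 of 67 of 0.6 and 59 of 67 of 1 log2 unit were recovered, with 4 false calls. The changed share was smaller than that called in the real comparison (10.1% fell and 7.69% rose). Since the adjustment depends on this share, the rates do not carry over to the real comparison. Depth of 12415519 reads or more leaves counting error small for genes at these levels. The members and lists were chosen with earlier results of these data known. Genes named are all members, in each other list up to 3 rises and 3 falls of the largest size past the threshold at 500 nM, and the 2 genes most correlated with each member past it, of which 1 is not reported here. P4HB, BMP1, PPIB, P3H1, P3H4, LOXL3, LOXL4, CREB3L1, MIA3, SLC39A13, CANX, COL1A1, COL1A2, COL3A1 and the chains named for their counts or at 0.5 nM were added after their values were seen. The same holds for CRTAP, TMEM38B, HSPD1, HSPE1 and HERPUD1. Gene coordinates and exon overlaps are from GENCODE 44 (hg38), where no member had a near-identical copy, and promoter sequences from RefSeq.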

Additional observations from a re-analysis of the deposited data

How the results depend on the processing

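Of the member counts, those at 500 nM (7 of 10), at 50 nM, from neighbouring doses and for the slope stayed within 1.5 times under each of the 10 settings that kept all or all compared libraries, and so did the counts of the 5 other lists at 500 nM. At 0.5 nM 1 member passed with no filter on low genes (LOX) and 0 with only the libraries compared, and at 5 nM 1 passed with no filter (LOX). Leaving out the filter adds genes to the adjustment, and the smaller fit has fewer libraries. Without 1 library, the number of members that passed ranged from 0 to 3 at 0.5 nM, 0 to 2 at 5 nM, 0 to 4 at 50 nM, 7 to 7 at 500 nM and 6 to 7 for the slope. From 0.5 to 5 nM it ranged from 0 to 0, from 5 to 50 nM from 0 to 1, and from 50 to 500 nM from 3 to 6. No member or ratio changed sign with a call. The replicate block gave 2, 2, 3 and 7 members at 0.5, 5, 50 and 500 nM, 0, 0 and 5 for the steps and 7 for the slope, and changed no call of a member. Another scaling moved the median of all genes by at most about 0.01. Outliers were not tested in groups of 3.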
